A study of Mus musculus with 4 samples.

Results

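Mitochondrially encoded transcripts were described in malignant cells sorted from mouse tumors under anti-PD-1 treatment. The transcripts are 9 of the genes on the mitochondrial chromosome, listed by name and matched by symbol to the Ensembl identifiers of the count files. They are the 2 ribosomal RNAs (mt-Rnr1 and mt-Rnr2) and 7 mRNAs (mt-Nd1, mt-Nd2, mt-Nd4, mt-Nd5, mt-Nd6, mt-Co1 and mt-Cytb), out of 37 genes on that chromosome and 53379 genes in all. All 9 were found and all 9 passed the low-count filter.

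MC38 is a mouse colon adenocarcinoma line, used here with a GFP tag, and 50000 cells were placed under the skin of C57BL/6 mice. Every mouse received anti-PD-1, an antibody that blocks an inhibitory receptor of T cells, at a sub-optimal 100 µg per dose on days 12, 15, 18 and 22, so no group was untreated. Tumors called non-responder gave 2 libraries and tumors called responder gave 2, and the comparison asks how their cancer cells differ. The labels give neither the age of the mice nor how response was scored, and whether replicate libraries came from different mice is not stated. The p-values therefore rest on the spread among these 4 libraries, and that spread may be technical. Total counts per library were 18447041 to 21754063. The epithelial genes Epcam, Krt8, Krt18 and Krt19 were at 0 to 0.635 CPM (counts scaled to a library total of 1000000) in every library, and Cdh1 was at 0.414 to 2.54 CPM. Where 4 values are set as a pair against a pair, the first pair is non-responder replicates 1 and 2 and the second is responder replicates 1 and 2. Summed over 7 genes, leukocyte markers had 31.2 and 106 CPM against 2.05 and 35.2 CPM.

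Mitochondrial DNA is a small circular chromosome that is copied and read inside the organelle. It encodes 13 proteins, all of them core subunits of the respiratory chain or of ATP synthase, together with 2 ribosomal RNAs and 22 transfer RNAs that serve their translation. Each strand is transcribed as a long precursor that is cut at the transfer RNAs, and most messages come from one strand, called the heavy-strand transcript; mt-Nd6 is the mRNA made from the opposite strand. The other respiratory subunits are encoded in the nucleus, so each complex other than complex II is built from both genomes.

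The counted mitochondrial genes lie on both sides of a stretch that had almost no reads. Counting kept reads that align to 1 place only, and the mouse nuclear genome holds copies of mitochondrial DNA. The other 6 mitochondrial mRNAs, mt-Co2, mt-Atp8, mt-Atp6, mt-Co3, mt-Nd3 and mt-Nd4l, had 2 reads between them over all 4 libraries: 1 for mt-Co2 in responder replicate 1 and 1 for mt-Atp6 in responder replicate 2. A count of 0 in a library allows up to 0.138 to 0.163 CPM of countable reads (3 counts, counting error only). It sets no limit on the level of these messages, since reads that also fit a nuclear copy are not in the counts.

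On the mm10 (GRCm38) build, 7 annotated pseudogenes follow each other on chromosome 1 within chr1:24611535-24616197, on the minus strand, and carry the mitochondrial genes from the end of mt-Co1 to the first part of mt-Nd4 in the same order. Aligned without gaps to their mitochondrial counterparts, 5 of them (Gm28439, Gm10222, Gm28437, Gm10925 and Gm28661) were identical at every base, Gm28438 had 1 mismatch and Gm29216 had 6. These 7 nuclear genes had 12, 10, 24 and 16 reads in non-responder replicates 1 and 2 and responder replicates 1 and 2. The opening of mt-Co2 (chrM:7013-7072, plus strand) and of its nuclear copy Gm28661 (chr1:24615506-24615565, minus strand) are shown because a read that lies within them fits both places. The sequences are from the GENCODE M21 transcripts, 5′ to 3′, and any base of the copy that differed would be in capitals.
mt-Co2: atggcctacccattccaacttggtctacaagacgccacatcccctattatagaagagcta
Gm28661: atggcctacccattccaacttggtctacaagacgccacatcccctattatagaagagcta

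As a measure of how much of each gene is shared, every window of 50 bases was looked up in all annotated nuclear transcripts of the same strand. Read length is not given in the sources used here, so 40 and 75 bases were tried as well. At 50 bases, mt-Co2 was shared over 100% of its windows, mt-Co3 over 99.9%, mt-Atp6 over 99.5%, mt-Nd4l over 98.8% and mt-Nd3 over 98.0%. No 50-base window of mt-Atp8 was found in an annotated nuclear transcript, and mt-Atp8 had no read. It (chrM:7766-7969, plus strand) starts in the 230 bases between mt-Co2 and mt-Atp6 and its end overlaps the start of mt-Atp6. The 2 pseudogenes that match mt-Co2 and mt-Atp6 on chromosome 1 are 233 bases apart; the genome sequence between them was not used here.

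Among the 9 counted genes, mt-Nd4 and mt-Co1, the genes at the 2 edges of that stretch, were shared over 62.2% and 51.1% of their windows. For mt-Nd2 the share was 8.19%, for mt-Nd5 7.61% and for mt-Rnr2 1.04%. It was 0% for mt-Rnr1, mt-Nd1, mt-Nd6 and mt-Cytb. With 40 and 75 bases mt-Nd4 had 62.5% and 61.5%, while mt-Co1 had 57.0% and 39.8%. The edges are printed for this reason. For mt-Nd4 (chrM:11013-11072, plus strand) the capitals are bases past the end of Gm28439. For mt-Co1 (chrM:6351-6410, plus strand) the capitals are bases before the start of Gm29216. At 50 bases Gm29216 matched 430 of the 765 shared windows of mt-Co1, and 3 nuclear genes matched in all. The capitals of mt-Co1 therefore mark the edge of Gm29216 and need not be unshared sequence.
mt-Nd4: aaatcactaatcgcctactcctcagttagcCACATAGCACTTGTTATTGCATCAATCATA
mt-Co1: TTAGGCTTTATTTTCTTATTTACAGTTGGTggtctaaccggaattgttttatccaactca

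**Figure D1:**
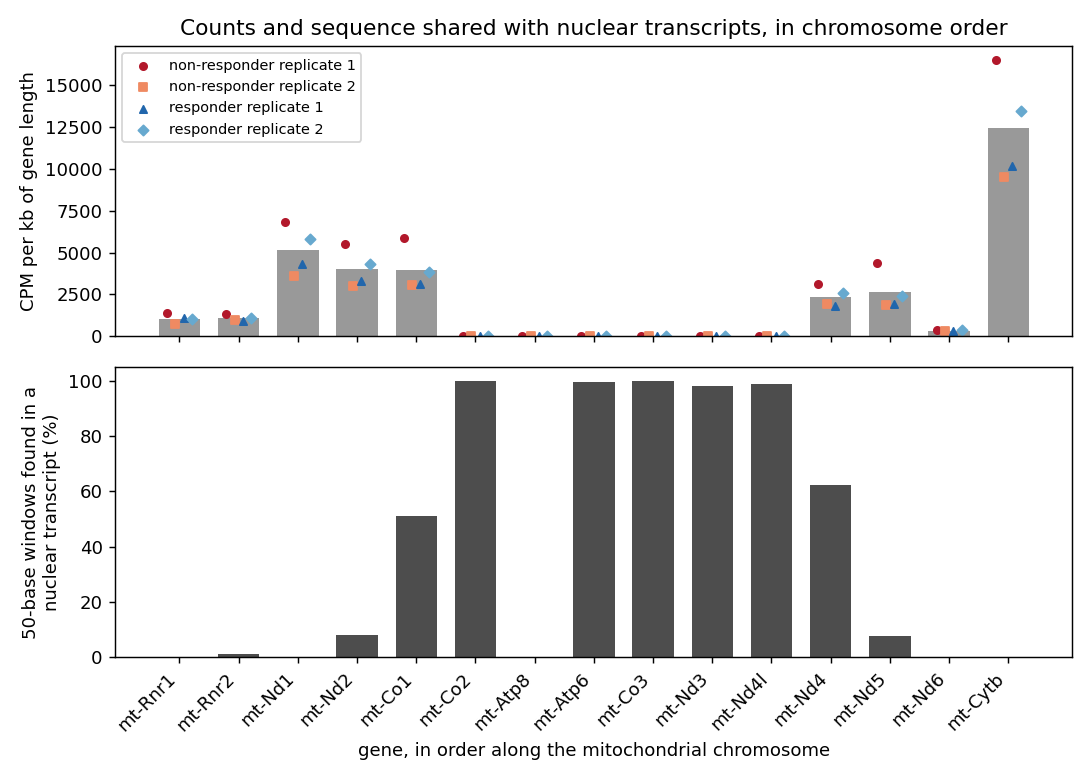
Upper panel: CPM per kb of gene length for the 15 rRNA and mRNA genes in order along the mitochondrial chromosome, with bars for the mean of the 4 libraries and points for each library. Lower panel: percent of each gene's 50-base windows found in an annotated nuclear transcript. From mt-Co2 to mt-Nd4l the counts are at or near 0, and 5 of those 6 genes are shared over at least 98.0% of windows.

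The 9 transcripts together took 5.61% of all counts in non-responder replicate 1 (exact Clopper-Pearson 95% interval 5.60% to 5.62%) and 3.07% in non-responder replicate 2 (3.06% to 3.07%). In responder replicate 1 they took 3.27% (3.26% to 3.28%), and in responder replicate 2 they took 4.22% (4.21% to 4.23%). Reads without molecular identifiers are not independent molecules, so these intervals cover counting error only. The library labelled non-responder replicate 1 was highest and the other non-responder library was lowest, so the responder libraries lay between the 2 non-responder libraries. The group means were 4.34% ± 1.80 (SD, n = 2) in non-responder and 3.75% ± 0.674 (SD, n = 2) in responder libraries. An exact two-sided permutation test of log2 shares gave p = 1.0, where 2 libraries against 2 cannot go below 0.333. The log2 ratio of the group means was -0.21 with all libraries and 0.29 without non-responder replicate 1.

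The message of cytochrome b had the most counts of the 9, in all and per length. mt-Cytb (ENSMUSG00000064370, chrM:14145-15288, plus strand) encodes the electron-carrying core of complex III. It had 18889 and 10909 CPM against 11632 and 15375 CPM. Both responder libraries lay between the non-responder libraries. In edgeR's quasi-likelihood fit over all genes its log2 fold change, responder over non-responder, was -0.19 (SE 0.36, 95% interval -1.04 to 0.65, adjusted p = 0.948).

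mt-Co1 (ENSMUSG00000064351, chrM:5328-6872, plus strand), the catalytic subunit of complex IV, had 9075 and 4713 CPM against 4864 and 5945 CPM. Non-responder replicate 1 was high, and both responder libraries were above non-responder replicate 2. The log2 fold change was -0.40 (SE 0.37, 95% interval -1.26 to 0.45, edgeR adjusted p = 0.889).

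The complex I messages on the heavy-strand transcript were also highest in non-responder replicate 1. These subunits form the membrane arm of complex I, the NADH dehydrogenase that pumps protons. mt-Nd1 (ENSMUSG00000064341, chrM:2751-3707, plus strand) had 6537 and 3467 CPM against 4145 and 5586 CPM. mt-Nd2 (ENSMUSG00000064345, chrM:3914-4951, plus strand) had 5740 and 3102 CPM against 3418 and 4510 CPM. For both, non-responder replicate 1 was highest, non-responder replicate 2 lowest, and the groups overlapped. mt-Nd4 (ENSMUSG00000064363, chrM:10167-11544, plus strand) had 4299 and 2665 CPM against 2494 and 3592 CPM. Here responder replicate 1 was lowest, slightly under non-responder replicate 2. The log2 fold changes were -0.09 (SE 0.37) for mt-Nd1, -0.21 (SE 0.36) for mt-Nd2 and -0.24 (SE 0.33) for mt-Nd4, with adjusted p from 0.927 to 0.978 in edgeR's fit.

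mt-Nd5 differed most between libraries. mt-Nd5 (ENSMUSG00000064367, chrM:11742-13565, plus strand) encodes the distal proton-pumping subunit of complex I. It had 7972 and 3419 CPM against 3545 and 4360 CPM, so the highest library was 2.33-fold above the lowest. Non-responder replicate 1 stood apart and the other 3 were close together. Its log2 fold change of -0.58 (SE 0.43, 95% interval -1.60 to 0.44) had the smallest p of the 9 in edgeR's fit (adjusted p = 0.864). Without non-responder replicate 2, whose level was like that of the responder libraries, the log2 fold change was -1.10 and passed (edgeR adjusted p = 0.0244), in a fit that called 516 genes over the whole table. Without non-responder replicate 1 it was 0.24 (adjusted p = 0.84).

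mt-Nd6 (ENSMUSG00000064368, chrM:13552-14070, minus strand) is the message of the opposite strand and had the fewest counts of the 9, in all and per length. It had 186 and 151 CPM against 151 and 204 CPM. Its highest library was responder replicate 2, while non-responder replicate 1 was the highest library for the other 8 transcripts, beside 22.7% of all genes tested. The range over libraries was 1.35-fold, the smallest of the 9, and the log2 fold change was 0.03 (SE 0.22, 95% interval -0.47 to 0.55, edgeR adjusted p = 0.985).

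The ribosomal RNAs form the core of the mitochondrial ribosome. mt-Rnr1 (ENSMUSG00000064337, chrM:70-1024, plus strand), the small-subunit 12S rRNA, had 1313 and 709 CPM against 1034 and 959 CPM. mt-Rnr2 (ENSMUSG00000064339, chrM:1094-2675, plus strand), the large-subunit 16S rRNA, had 2129 and 1538 CPM against 1410 and 1700 CPM. For both, non-responder replicate 1 was highest and the groups overlapped. The log2 fold changes were -0.07 (SE 0.33) and -0.28 (SE 0.27), with adjusted p of 0.984 and 0.895 in edgeR's fit. Libraries were made from RNA captured on oligo-dT beads. The values of the rRNAs, and of mt-Nd6 and the other mRNAs, are therefore levels of captured RNA and are not the content of the cells.

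**Figure D2:**
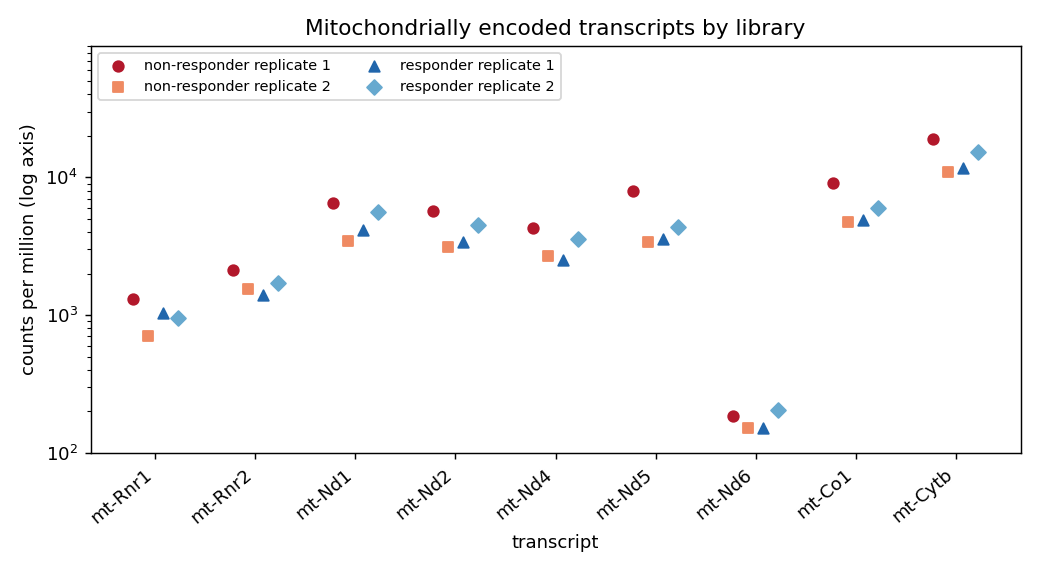
CPM of each of the 9 transcripts (log axis) in the 4 libraries, 1 point per library. Non-responder replicate 1 is highest for 8 of the 9 transcripts, beside 22.7% of all genes tested. Both responder libraries lie between or beside the non-responder libraries rather than apart from them.

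None of the 9 transcripts passed an adjusted p of 0.05 in edgeR's test, DESeq2 or limma-voom, and 0 had an unadjusted p under 0.05 in edgeR's test. Over all 13792 genes tested, edgeR called 0% at an adjusted p of 0.05. At an unadjusted p under 0.05 it called 6.21% (2.57% higher and 3.63% lower in responder libraries). DESeq2 tested 29612 genes and gave an adjusted p to 14111 of them, of which it called 0.454%. The groups overlapped for each of the 9 transcripts, where they did not overlap for 36.3% of all genes tested (19.7% higher and 16.6% lower in responder libraries). Of the 9, 8 had a log2 fold change below 0, against 51.1% of all genes. Their median was -0.21, beside -0.01 over all genes.

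The direction depended on which non-responder library was kept. Without non-responder replicate 1 all 9 log2 fold changes were above 0, from 0.04 to 0.52. Without non-responder replicate 2 all 9 were below 0, from -1.10 to -0.16, and mt-Nd5 was the transcript that passed. The counts behind these values ran from 3094 reads for mt-Nd6 to 410904 for mt-Cytb in a library.

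**Figure D3:**
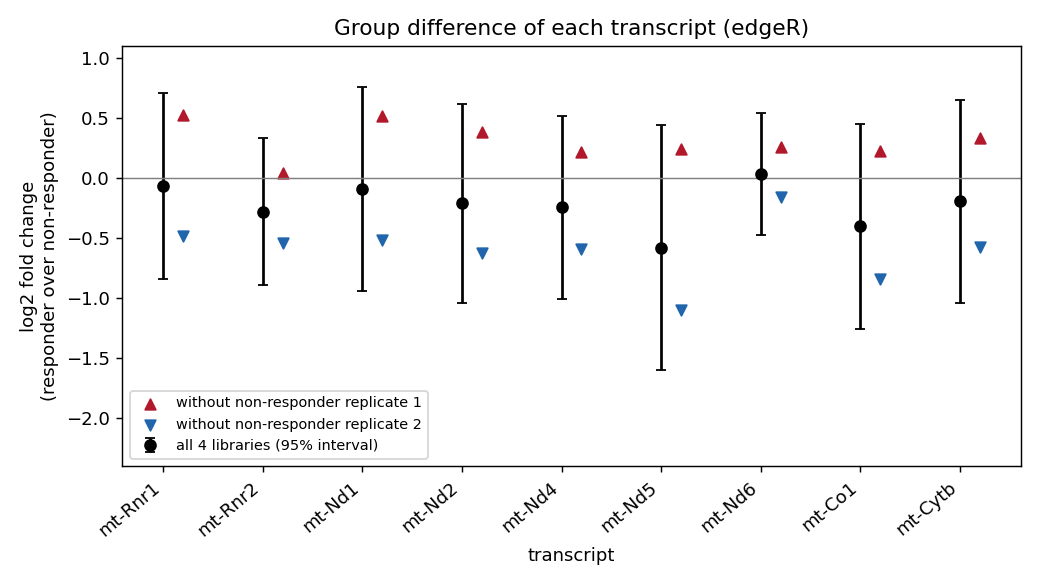
Log2 fold change, responder over non-responder, of each transcript from edgeR with all 4 libraries (black, with 95% interval) and with either non-responder library left out. Every interval includes 0, and the values without non-responder replicate 1 are above 0 while those without non-responder replicate 2 are below 0.

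Levels of captured RNA can be compared between genes only per length, and how well each transcript was captured was not tested. On the scale of CPM per kb of counted length, averaged over the 4 libraries, mt-Cytb had 12414 ± 3223 (SD, n = 4), followed by mt-Nd1 with 5155 ± 1449, mt-Nd2 with 4039 ± 1151 and mt-Co1 with 3980 ± 1312. Next came mt-Nd5 with 2645 ± 1173, mt-Nd4 with 2367 ± 612, mt-Rnr2 with 1071 ± 198 and mt-Rnr1 with 1051 ± 260. mt-Nd6 was last with 334 ± 50.9. Within a library mt-Cytb was 2.30 to 2.63 times mt-Nd1. For 3 pairs of neighbours the order turned in 2 of the 4 libraries, and the mean log2 ratio was smaller than its SD: 0.03 ± 0.11 for mt-Nd2 over mt-Co1, 0.10 ± 0.27 for mt-Nd5 over mt-Nd4 and 0.04 ± 0.28 for mt-Rnr2 over mt-Rnr1. The other neighbours kept their order in all 4 libraries.

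Leaving out shared sequence moved mt-Co1 and mt-Nd4 up in that order. When CPM were divided by the kb of start positions with no exact 50-base match in a nuclear transcript, a scale added after the data were seen, mt-Co1 had 8412 ± 2772 and mt-Nd4 6499 ± 1679 (SD, n = 4). They then had ranks 2 and 3, behind mt-Cytb with 12969 ± 3367, and above mt-Nd1 with 5434 ± 1527. At 50 bases their order relative to these neighbours was the same in all 4 libraries. By the mean of the 4 libraries both kept those ranks with windows of 40 and 75 bases. At 75 bases, however, mt-Co1 was below mt-Nd4 in responder replicate 2 (6717 against 7156). mt-Rnr1, mt-Rnr2 and mt-Nd6 remained the 3 lowest with each window length. Copies outside annotated transcripts were not searched.

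The make-up of the mitochondrial counts differed between libraries in a few transcripts. mt-Cytb was 33.6% of the counts of the 9 in non-responder replicate 1 and 35.6%, 35.6% and 36.4% in non-responder replicate 2 and responder replicates 1 and 2. mt-Nd5 was 14.2% in the first library and 11.1%, 10.8% and 10.3% in the others, in the same order. mt-Nd6 was 0.331% there and 0.493%, 0.463% and 0.484% in the others. In these 3 transcripts non-responder replicate 1 stood apart from the other 3 libraries.

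Per 1000 reads of the 6 heavy-strand mRNAs there were 3.54 reads of mt-Nd6 in non-responder replicate 1 and 5.35, 5.02 and 5.19 in non-responder replicate 2 and responder replicates 1 and 2. The mean log2 ratio was -7.84 ± 0.42 in non-responder and -7.61 ± 0.03 in responder libraries (SD, n = 2), with an exact two-sided permutation p = 1.0. The difference of 0.23 was -0.07 without non-responder replicate 1. These are ratios of captured RNA, and capture of mt-Nd6 relative to the heavy-strand mRNAs was not tested.

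The 2 rRNAs were 6.13% and 7.33% of the counts of the 9 in non-responder and 7.48% and 6.30% in responder replicates 1 and 2. The group means of 6.73% ± 0.845 and 6.89% ± 0.836 (SD, n = 2) differed by less than the spread within a group (exact two-sided permutation p = 0.667). The balance of the 2 rRNAs varied too: per kb, mt-Rnr2 over mt-Rnr1 was 0.979 and 1.31 in non-responder and 0.823 and 1.07 in responder replicates 1 and 2. mt-Rnr1 was 3.16% of the counts of the 9 in responder replicate 1 and 2.27% to 2.34% in the other 3 libraries.

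**Figure D4:**
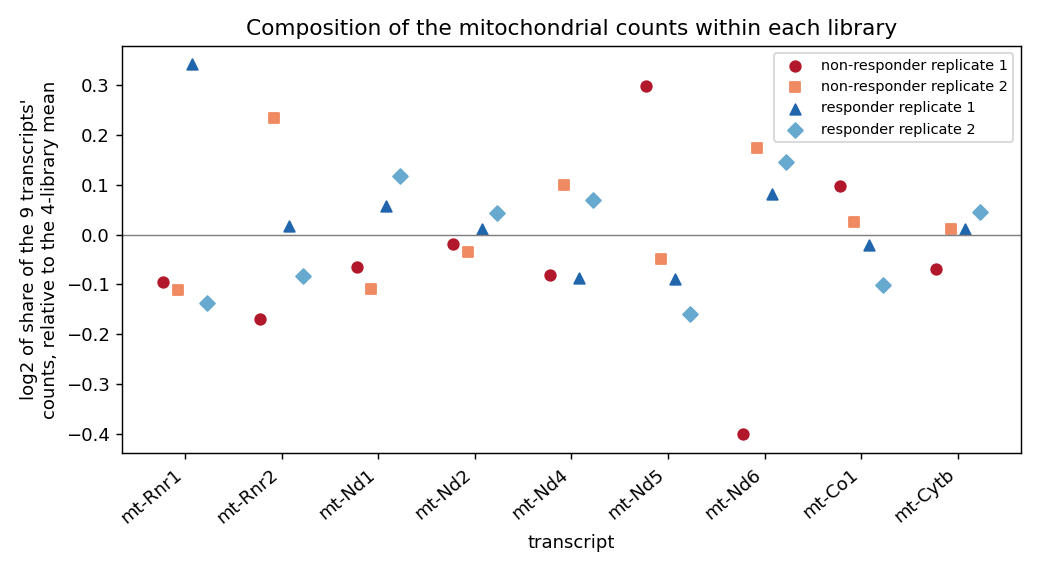
Log2 of each transcript's share of the counts of the 9, relative to its geometric mean over the 4 libraries. Non-responder replicate 1 has a high share of mt-Nd5 and a low share of mt-Nd6, and responder replicate 1 has a high share of mt-Rnr1.

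Sequence features set mt-Nd6 apart from the other mRNAs. Its sense strand holds 28.1% G and 5.97% C, whereas the 6 heavy-strand mRNAs hold 8.0% to 16.1% G and 23.8% to 27.7% C. Among the 7 listed mRNAs, mt-Nd6 had the fewest counts and mt-Cytb the most. Whether base composition bears on the counts was not tested. The first 60 bases of mt-Nd6 (chrM:14011-14070, minus strand) and of mt-Cytb (chrM:14145-14204, plus strand) are shown with G in capitals: 12 G in mt-Nd6 and 3 in mt-Cytb. Over its whole length mt-Cytb holds 12.2% G, a higher share than in this opening.
mt-Nd6: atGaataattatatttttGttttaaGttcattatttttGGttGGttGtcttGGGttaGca
mt-Cytb: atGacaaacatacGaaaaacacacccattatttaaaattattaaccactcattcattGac

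Of the 7 mRNAs, mt-Nd4 and mt-Cytb end 1 base into a codon in the annotation. The stop codon of such messages is completed by the added poly(A) tail. Their last 30 bases are shown, with the base past the last whole codon in capitals (chrM:11515-11544 and chrM:15259-15288, plus strand).
mt-Nd4: gtccaaaactaattacaggcctgacaataT
mt-Cytb: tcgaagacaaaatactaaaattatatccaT

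The summed nuclear genes of the respiratory chain and ATP synthase had another order of libraries than the mitochondrial transcripts. Summed CPM of the 7 mitochondrial mRNAs were 52697 and 28427 against 30249 and 39572 in responder replicates 1 and 2. Summed CPM of 75 nuclear subunit genes of complexes I to IV and ATP synthase were 5984 and 7003 against 6572 and 7197. Non-responder replicate 1 was thus highest in the mitochondrial sum and lowest in the nuclear sum, and the mitochondrial sum was 8.81 times the nuclear sum there and 4.06, 4.60 and 5.50 times in non-responder replicate 2 and responder replicates 1 and 2. Of the 75 nuclear genes, 48 had their lowest CPM in non-responder replicate 1, beside 41.4% of all genes tested.

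**Figure D5:**
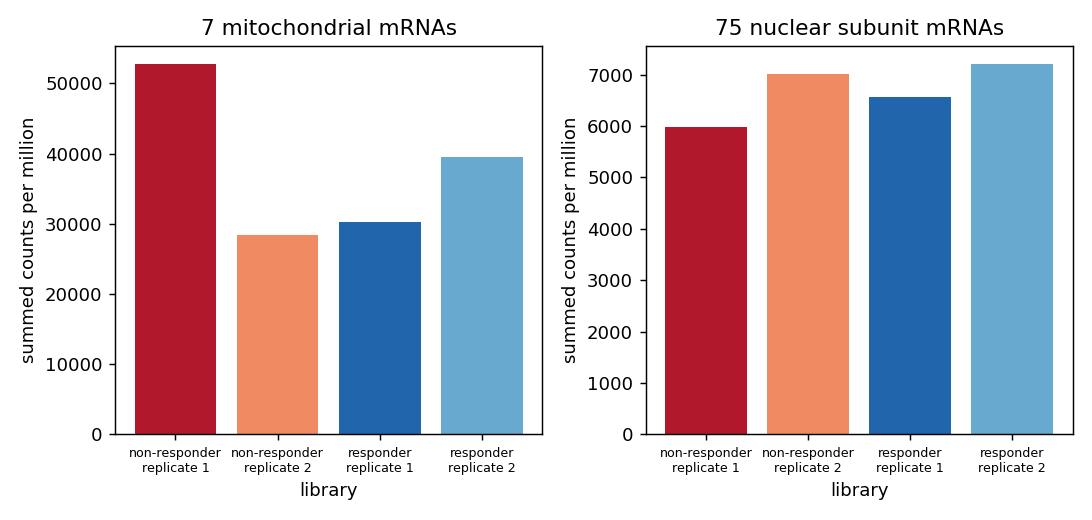
Summed CPM of the 7 mitochondrial mRNAs (left) and of 75 nuclear respiratory-chain and ATP synthase subunit genes (right) in each library, both axes from 0. The library with the highest mitochondrial sum, 52697 CPM, has the lowest nuclear sum, 5984 CPM.

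Between the groups, 46 of the 75 nuclear subunit genes had a log2 fold change above 0 and 29 below 0, beside 48.9% above 0 over all genes, with a median of 0.03. None passed edgeR's test at an adjusted p of 0.05. Beside 6.21% of all genes, 2 of the 75 had an unadjusted p under 0.05. These were Ndufv3, an accessory subunit of complex I, with a log2 fold change of -0.44 (SE 0.17, adjusted p = 0.765), and Cox8a, a subunit of complex IV, with 0.40 (SE 0.17, adjusted p = 0.79). Cyc1, the nuclear cytochrome c1 that works beside mt-Cytb in complex III, had 64.7 and 117 CPM against 117 and 140 CPM, so its lowest library was the highest for mt-Cytb. Cox6c, a small subunit of complex IV, had 316 and 179 CPM against 173 and 179 CPM, and like mt-Co1 was highest in non-responder replicate 1.

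Over all genes 48.9% had a log2 fold change above 0. Genes that make, process and degrade mitochondrial RNA had 18 of 27 members above 0 and 9 below, with a median of 0.07, and none passed an adjusted p of 0.05. The member of smallest p was Tbrg4, a FASTK-family protein that binds mitochondrial RNA, with 64.1 and 75.7 CPM against 96.5 and 99.7 CPM (log2 fold change 0.46, SE 0.16, edgeR adjusted p = 0.744). Its groups did not overlap. In 9 of the 27 both responder libraries were above both non-responder libraries, beside 19.7% of all genes. In 1 of the 27 both were below, beside 16.6%. Rexo2, an oligoribonuclease of mitochondria, was the leading gene in the other direction (log2 fold change -0.21, SE 0.22, adjusted p = 0.903). The most abundant was Pnpt1, the polynucleotide phosphorylase of the mitochondrial RNA degradosome, at 118 to 137 CPM. Mitochondrial ribosomal protein genes had 34 of 42 members above 0 with a median of 0.115, none of them past an adjusted p of 0.05. In 13 of the 42 both responder libraries were above both non-responder libraries, beside 19.7% of all genes. Mitochondrial chaperone and protease genes had 10 of 13 above 0 with a median of 0.11, and none passed.

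Genes listed as markers of other cell types were read beside the mitochondrial share, as were RNAs listed as lacking a poly(A) tail and nuclear RNAs. The summed macrophage markers had 71.3 and 215 CPM against 12.6 and 76.3 CPM. Like the leukocyte sum, they were highest in non-responder replicate 2, where the mitochondrial share was lowest (3.07%), and lowest in responder replicate 1, where that share was next lowest (3.27%). Among the 7 macrophage genes, Cd68 had 8.69 to 10.3 CPM. The 7 fibroblast genes summed to 8468 and 14999 CPM against 7493 and 6534 CPM, most of it Col3a1. All 7 were lower in both responder libraries than in both non-responder libraries, beside 16.6% of all genes. In edgeR's test 6 were lower at an unadjusted p under 0.05, beside 3.63% of all genes, and none had an adjusted p under 0.05. Whether these 7 genes were expressed by the MC38 cells or by other cells was not tested. Skeletal muscle, a tissue rich in mitochondria, gave 2.79 to 3.90 CPM over 7 markers, with Ckm and Myh4 at 0 in every library. Red cell, fat and keratinocyte markers each summed to at most 9.58 CPM in a library. The 13 RNAs listed as lacking a poly(A) tail, histone messages among them, summed to 101 and 74.0 CPM against 75.1 and 54.2 CPM. Most of this was Hist1h2bc, with 56.6 and 32.3 against 38.4 and 27.1 CPM, and Hist1h1c, with 37.8 and 36.9 against 25.4 and 21.4 CPM. Whether these histone messages carried a tail was not tested. The nuclear RNAs Malat1, Neat1 and Kcnq1ot1 summed to 1475 and 1964 CPM against 1899 and 2409 CPM, lowest in non-responder replicate 1. The part of these in the mitochondrial share was not tested. In bulk samples more transcripts per cell and more cells rich in them cannot be told apart.

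The nuclear genes most like the summed mitochondrial profile were Hmgn5, Ndufs6, Atpif1, Prr11 and Sf3b4. Likeness was the root mean square difference of log2 CPM, centred over the 4 libraries, among 7470 nuclear genes with a mean of at least 20 CPM, and it is a description over 4 libraries only. Hmgn5, a nucleosome-binding protein, had the smallest difference, 0.00874, with 79.4 and 42.8 CPM against 46.0 and 59.9 CPM. Ndufs6, an accessory subunit of complex I, had 38.2 and 20.1 CPM against 22.3 and 25.9 CPM. Atpif1, the inhibitor protein of the mitochondrial ATP synthase, had 93.3 and 56.9 CPM against 58.4 and 71.2 CPM. Prr11 had 175 and 104 CPM against 114 and 129 CPM, and Sf3b4 had 35.35 and 19.0 CPM against 23.5 and 26.8 CPM. The differences of the 4 genes after Hmgn5 were 0.0626 to 0.0854.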

How the data were processed

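Polyadenylated RNA of sorted tumor cells was sequenced in 4 libraries, and group and replicate number come from the sample titles. The deposited values are raw counts per gene, 1 file per library; reads were counted with featureCounts 1.6.1, reverse-stranded (setting 2), on Ensembl release 91, per the file headers. That command did not ask for multi-mapping reads. STAR and mm10 are named in the submitters' processing notes; how STAR was run is not given in the sources used here. Of 53379 identifiers, 53274 matched a symbol.

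CPM are counts scaled to a library total of 1000000, without scaling factors. Fold changes come from edgeR 4.0.16 in R 4.3.3: filterByExpr (minimum count 10, 13792 genes kept), TMM factors (0.952 to 1.036), a robust quasi-likelihood fit on group, Benjamini-Hochberg adjustment and a threshold of 0.05. The SE is the log2 fold change over the square root of F, and 95% intervals use the fit's degrees of freedom. The fit was tested on simulated data. No 2 libraries were near-identical (chi-square per degree of freedom 22.5 to 66.3 over the pairs). Shares and ratios were compared by exact permutation over the libraries (scipy 1.17.1). Alternatives were RLE and upper-quartile factors, library size alone, factors from nuclear genes, DESeq2 1.42.0, limma-voom (limma 3.58.1), no filter, 5 CPM in 2 libraries, a replicate block and each library left out. The named transcripts were given as a list. From each other gene list, the gene of smallest p in each direction and the most abundant gene could be named; some are left out here, and the epithelial genes and Cd68 were chosen after their values were seen. The members and lists were chosen with earlier results of these data known.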

Additional observations from a re-analysis of the deposited data

How the results depend on the processing

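None of the 9 transcripts was called with all 4 libraries under any scaling, filter or tool tried, and the number called when 1 library was left out was 0 to 1. Of 81 values from the 9 alternatives that keep all libraries, 79 kept their direction; mt-Rnr1 turned from -0.07 to 0.0111 with limma-voom and to 0.0153 with the replicate block. Leaving out 1 library each gave log2 fold changes of -0.48 to 0.52 for mt-Rnr1, -0.54 to 0.0443 for mt-Rnr2, -0.52 to 0.52 for mt-Nd1, -0.63 to 0.38 for mt-Nd2, -0.59 to 0.22 for mt-Nd4, -1.10 to 0.24 for mt-Nd5, -0.16 to 0.26 for mt-Nd6, -0.84 to 0.23 for mt-Co1 and -0.58 to 0.34 for mt-Cytb. The log2 ratio of the summed shares ran from -0.58 to 0.29 over these fits, and was -0.23 with mitochondrial genes out of the denominator, -0.22 without the rRNAs and -0.16 as the mean of same-numbered differences. The rRNA share of the 9 (difference 0.157 percentage points) ran from -0.44 to 0.755, and was 0.239 per kb of unshared positions, an alternative chosen after seeing the data. With 1 library left in a group, its spread is taken from the other group. The labels do not say whether same-numbered libraries share anything beyond the number. Deviations of same-numbered libraries from their group means correlated at 0.372 over genes. With 2 libraries in each group this is a single correlation, and the value for crossed numbers (-0.372) is fixed by it. Whether the numbers mark a shared day or batch was not tested. The replicate block called 32 genes over the whole table, DESeq2 64, the fit with no filter 212 and the fits without 1 library 41 to 516, against 0 in the fit reported. The cause was not tested. Depth limits none of the 9, at 3094 reads or more per library, whereas mt-Co2 to mt-Nd4l had 2 countable reads in all.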

Other observations

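Nuclear genes that share sequence with a mitochondrial gene held a few reads, the pseudogenes on chromosome 1 among them. Of 15 nuclear genes that share at least 1 window of 40 bases with a mitochondrial gene, Gm13340, a copy of mt-Co1 on chromosome 2 (chr2:22588103-22589647, minus strand), had the most, with 121 and 101 reads in non-responder and 84 and 97 reads in responder replicates 1 and 2. Its neighbour Gm13341 (chr2:22587291-22587962, minus strand), a partial match of mt-Co2, had 109 and 59 against 67 and 97 reads. These are more reads than mt-Co2 itself was given. The copies of mt-Nd5, Gm11407 on chromosome 4 and Gm4076 on chromosome 13, had 72 and 46 reads in non-responder replicate 1 and 13 to 24 reads in the other libraries; mt-Nd5 too was highest in non-responder replicate 1. All 15 genes together held 476 and 280 reads in non-responder and 284 and 344 reads in responder replicates 1 and 2, which is 0.039% to 0.0442% of the reads of the 9 mitochondrial transcripts. Whether these reads come from the nuclear genes or from mitochondrial RNA with mismatches was not tested.

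Of the 22 mitochondrial transfer RNA genes 11 had a read, 95 and 65 reads in all in non-responder and 110 and 88 in responder replicates 1 and 2. The most read was mt-Tl1, between mt-Rnr2 and mt-Nd1, with 16 and 22 against 17 and 24 reads. Next was mt-Ti, which follows mt-Nd1, with 16 and 8 against 29 and 18 reads. Unlike the 6 heavy-strand mRNAs, these read totals, which are not scaled to library size, were not highest in non-responder replicate 1.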
